A study of Mus musculus with 3 samples.

Results

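The genes described here encode inhibitors and feedback targets of Wnt signaling, and were chosen by name from the count tables of mouse skin scRNAseq libraries. They are 9 of the 32285 genes counted: Sfrp1, Frzb, Wif1, Dkk3 and Sostdc1, whose products are secreted antagonists, Apcdd1, a membrane-bound inhibitor, and Axin2, Nkd1 and Lef1, which are target genes of the pathway. Their levels were measured in cell classes defined by marker genes, and none of the 9 served as a marker. In short, Sfrp1 and Dkk3 were highest in bulge hair follicle stem cells (HF-SC) among classes with at least 20 cells. The target genes together reached at most 37.0 CPM (counts per 1000000) there. Low target levels were not particular to HF-SC, since basal cells of the interfollicular epidermis reached at most 27.7 CPM. Of these targets Nkd1, from few counts, was higher in HF-SC than in those basal cells, while Axin2 and Lef1 did not pass the test. Sostdc1 was high both in HF-SC and in keratinocytes gated by Aldh3a1 and Gata6. Wif1, Frzb and Lef1 were prominent in dermal papilla (DP) cells, Apcdd1 and Nkd1 in dermal fibroblasts and DP cells, and Axin2 was spread thinly over the epidermis, the follicle and the dermis.

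The study followed hair follicle aging in K14-H2BGFP mice, in which the keratin 14 promoter drives a histone-GFP fusion in basal epithelial cells, with wild-type genotype and no treatment in all groups. The groups were untreated skin at P38 (male, catagen), 6 months (female, mostly anagen) and 12 months (male, mixed telogen and anagen), with 1 library per age. The study's methods describe flow sorting of both GFP-positive epidermal and GFP-negative dermal cells, the P38 cells were sorted as GFP-positive, the sample labels name skin only, and the number of animals per library was not given in the sources used here. With 1 library per age, the differences between ages have no replicate check, and age, sex, hair cycle stage and library depth cannot be told apart.

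The libraries held 2109, 3502 and 3240 kept cells (over 200 and under 5000 genes, mitochondrial share under 15%) at P38, 6 months and 12 months, with a median of 16170, 1019 and 11438.5 unique molecular identifiers (UMIs, each 1 captured transcript molecule) per cell. At 6 months 52.5% of kept cells had under 1000 genes, and more cells passed there than the study states for this filter. Of the 8851 kept cells, 5921 fell into 1 of 19 classes by markers fixed for each type. The names are rebuilt from those markers and mean cells like that type (HF-SC-like, DP-like and so on), with the suffix left out below. Among the 10 leading genes of HF-SC at 12 months, 2 were its own markers and 2 were markers of other classes (Tgm5 of Niche and Shisa2 of HG). The 6-month and 12-month libraries shared 81 kept barcodes, most of them in sebaceous gland (SG) cells (38 of 113 at 6 months and 39 of 59 at 12 months). Without the shared barcodes, Sfrp1 came to pass the test in Niche over HF-SC and in HG over HF-SC, and no other ratio between classes named below changed its call. That fit also lost the class of migratory niche cells and held 9 classes instead of 10, so the effects of both changes cannot be told apart. Fibroblasts, DP, immune, endothelial and muscle classes were measured at 6 and 12 months only, since P38 held fewer than 20 cells of each, and the DP at 6 months held 15 cells only. Levels are given as CPM, the UMIs of a gene among 1000000 UMIs summed over the cells of 1 class and library. Parentheses after a CPM give its exact Poisson 95% interval, which covers counting error only.

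Wnt ligands bind Frizzled receptors with Lrp5 or Lrp6 as co-receptor, which spares β-catenin from a destruction complex and lets it activate genes with Lef1 and Tcf factors. Secreted frizzled-related proteins (Sfrp1 and Frzb) and Wif1 bind the ligand itself, Sostdc1 binds the Lrp co-receptors as well as BMPs, and Dkk3 is a divergent member of the Dickkopf family. In hair follicles Wnt activity accompanies the start of growth in the hair germ and the shaping of the hair shaft, and the resting bulge is known for expression of Wnt antagonists.

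Axin2, Nkd1 and Lef1 are the genes read below as targets, so the letters around their annotated starts are shown (RefSeq, GRCm38.p6, 250 bases before to 50 after a start, 5ʹ to 3ʹ on the gene's strand). Starts of 5 of the 9 genes were matched in the table used, and Lef1 had 4. Capitals mark the Tcf/Lef core letters CTTTGA or CTTTGT on either strand, which read TCAAAG or ACAAAG on the other.
Axin2 (chr11:108920099-108920398, + strand): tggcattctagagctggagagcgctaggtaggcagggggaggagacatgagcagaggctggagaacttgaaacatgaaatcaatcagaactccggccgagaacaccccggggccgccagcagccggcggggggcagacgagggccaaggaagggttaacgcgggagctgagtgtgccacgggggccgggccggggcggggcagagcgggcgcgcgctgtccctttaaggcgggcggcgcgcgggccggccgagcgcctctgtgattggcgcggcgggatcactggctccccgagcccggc
Nkd1 (chr8:88527383-88527682, + strand): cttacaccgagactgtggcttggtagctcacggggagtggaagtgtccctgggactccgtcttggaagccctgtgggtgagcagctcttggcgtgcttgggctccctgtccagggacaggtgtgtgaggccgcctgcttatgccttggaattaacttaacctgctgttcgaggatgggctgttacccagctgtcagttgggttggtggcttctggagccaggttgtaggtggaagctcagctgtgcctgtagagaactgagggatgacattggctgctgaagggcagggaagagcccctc
Lef1, first start (chr3:131110047-131110346, + strand): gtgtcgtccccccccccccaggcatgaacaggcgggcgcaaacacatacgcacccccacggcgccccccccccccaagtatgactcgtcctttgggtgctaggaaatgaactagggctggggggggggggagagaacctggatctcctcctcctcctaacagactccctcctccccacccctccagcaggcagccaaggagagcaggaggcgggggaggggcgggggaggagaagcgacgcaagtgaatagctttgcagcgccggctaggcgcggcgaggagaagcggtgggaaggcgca
Lef1, last start (chr3:131156044-131156343, + strand): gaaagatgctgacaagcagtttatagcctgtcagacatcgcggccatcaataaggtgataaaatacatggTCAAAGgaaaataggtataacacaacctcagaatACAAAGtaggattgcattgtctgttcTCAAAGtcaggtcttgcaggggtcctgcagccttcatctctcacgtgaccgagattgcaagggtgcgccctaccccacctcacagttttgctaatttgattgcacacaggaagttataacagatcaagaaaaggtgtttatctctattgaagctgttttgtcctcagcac
The Axin2 window held 0 matches, the Nkd1 window 0 and the first Lef1 window 0. The Nkd1 window lies inside the gene's span, past its first annotated base, so it is not the region before the gene. Of the other Lef1 windows, 2 held 0 matches, 1 of them also inside the gene. The last, in an intron of the longer Lef1 gene model and shown because it was the only one with matches, held 3. Among 32851 promoter windows of this length, 31.2% held at least 1 match and 1.14% held at least 3. A match is a description of letters, and the 3ʹ tags counted here do not tell the starts of Lef1 apart.

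Sfrp1, a secreted frizzled-related protein that binds Wnt ligands, was the most abundant of the 9 genes in HF-SC. Its level there was 573 CPM (548 to 599) at P38, 1641 CPM (1561 to 1724) at 6 months and 726 CPM (659 to 797) at 12 months, and 90.9%, 88.9% and 82.6% of cells had a UMI. After thinning of each cell to 2000 UMIs these shares were 56.2%, 83.0% and 55.6%. Every HF-SC value lay above every value of the other epithelial classes except that of the hair germ (HG) at 6 months, which reached 832 CPM. HG stood at 199.6 CPM at P38 and 117 CPM at 12 months. Niche cells of the inner bulge had 177, 332 and 234 CPM at the 3 ages, and 31 of the 94 UMIs at 12 months came from 1 cell. In migratory niche cells (migNiche) Sfrp1 was at 34.6 CPM at P38, 426 CPM at 6 months and 0 UMIs at 12 months, where the 21 cells hold only enough UMIs to allow up to 107 CPM. The DP had 56.4 CPM at 12 months. The 15 DP cells at 6 months, too few to be counted as a class, gave 241 Sfrp1 UMIs in 13 cells, of which 1 cell held 76. That is 2221 CPM (1950 to 2520), above the HF-SC value of the same library.

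Basal cells of the interfollicular epidermis (IFE) had 36.3 CPM of Sfrp1 at P38, 101 CPM at 6 months and 32.1 CPM at 12 months. In suprabasal cells the level was 20.2 to 31.8 CPM, and in the upper hair follicle (UpHF) it was 7.31, 12.2 and 5.04 CPM. Averaged over the 3 libraries, the order among these classes ran from HF-SC (980 ± 578 CPM, SD, n = 3) over HG (383 ± 391), Niche (248 ± 78.3), IFE basal (56.4 ± 38.6), proliferating cells (53.0 ± 25.2) and suprabasal cells (25.2 ± 5.98) to UpHF (8.19 ± 3.68). The ranges of HF-SC and HG overlapped, as did those of HG and Niche and those of IFE basal and proliferating cells. As a measure of free RNA, 5.45% of T cells at 6 months and 0 of 40 at 12 months had an Sfrp1 UMI, and in Langerhans cells and macrophages the shares were 2.70% and 1.19%.

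**Figure D1:**
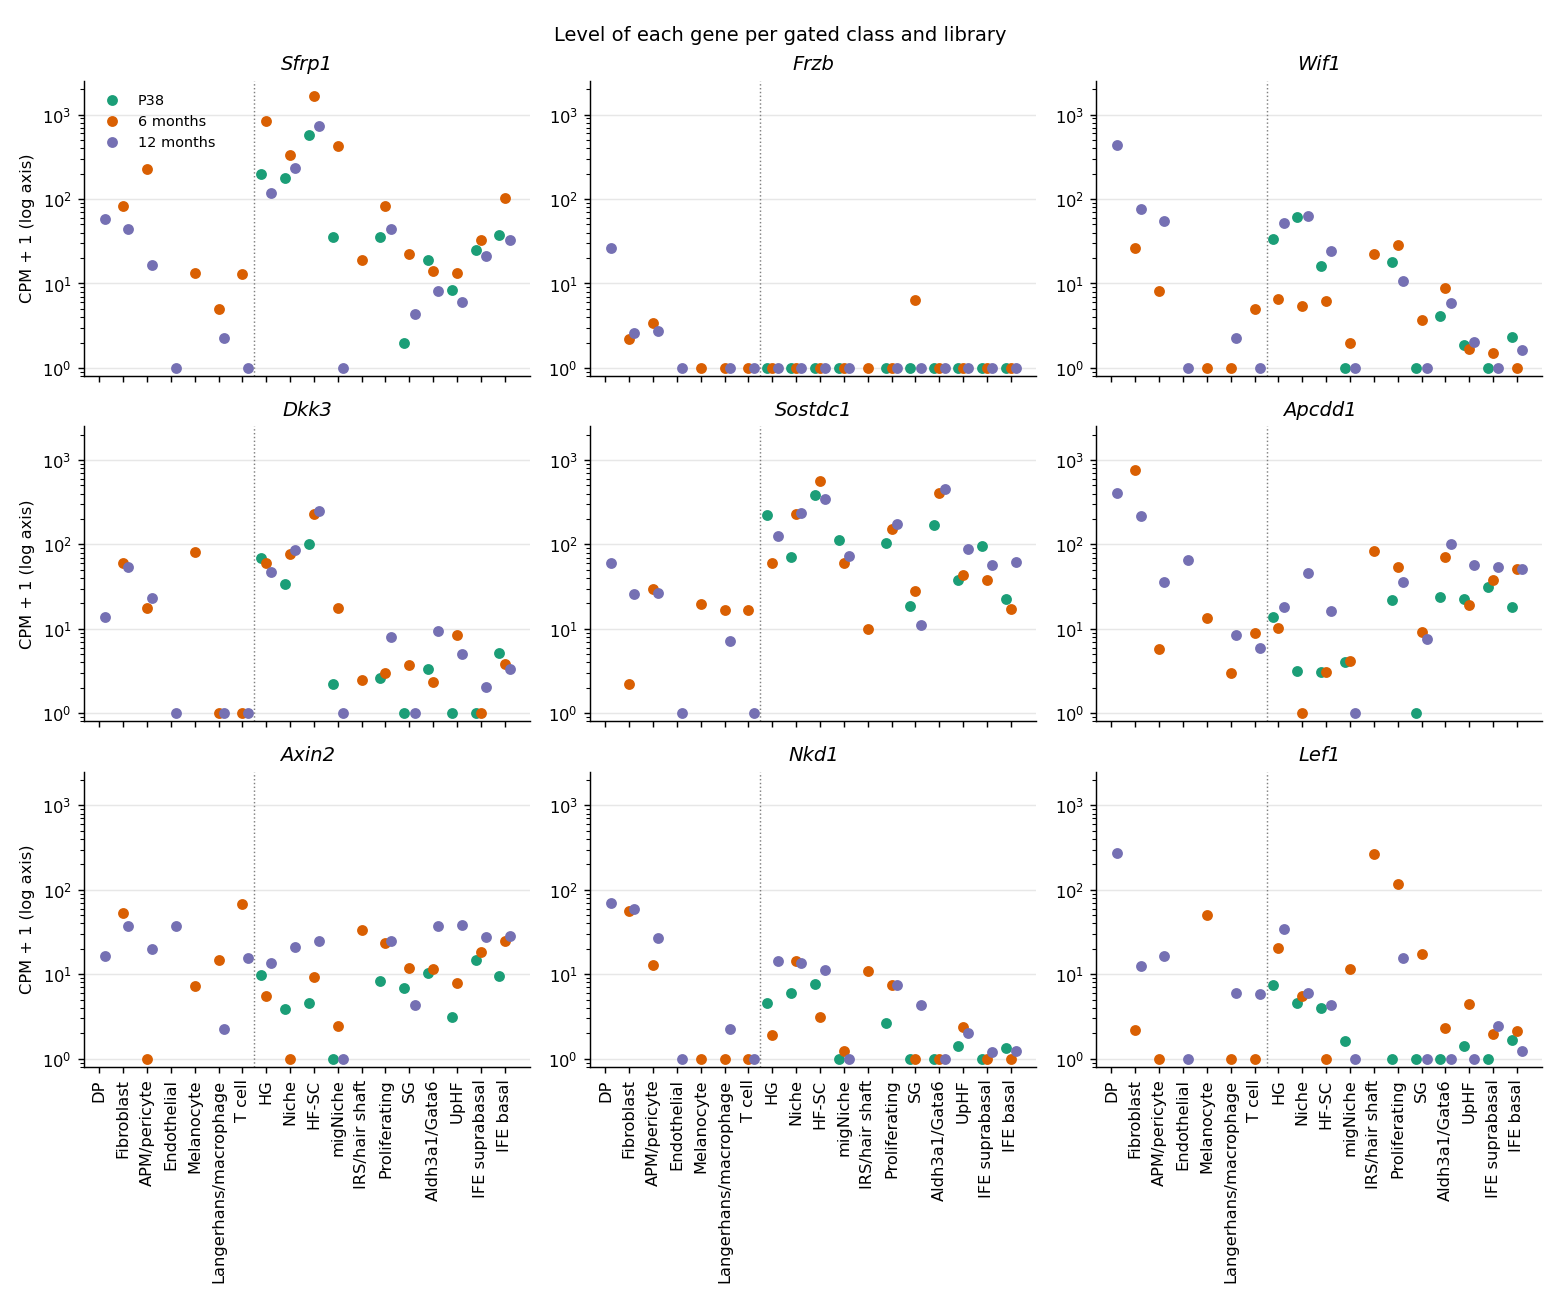
Level of each gene (y axis, CPM + 1, log scale) in each cell class of at least 20 cells (x axis, non-epithelial classes left of the dotted line), with 1 point per library (P38, 6 months, 12 months) and no error bars, so that a class with 0 UMIs lies at the foot of the axis. Sfrp1 reaches 1641 CPM in HF-SC at 6 months, and Frzb is highest in the DP at 12 months, at 25.6 CPM.

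Dkk3, the divergent Dickkopf family member, had the same leading class. Its HF-SC level was 100.2 CPM (89.9 to 111) at P38, 227 CPM (198 to 259.6) at 6 months and 247 CPM (209 to 290.2) at 12 months, with a UMI in 64.0%, 75.8% and 66.3% of cells. Niche cells had 32.8, 76.2 and 84.7 CPM and HG cells 67.7, 58.7 and 45.6 CPM, so that the ranges of these classes overlapped and that of HF-SC lay above both. IFE basal cells were at 4.25, 2.87 and 2.38 CPM. Outside the epithelium, fibroblasts had 53.4 CPM at 12 months, against 59.7 CPM at 6 months, and DP cells at 12 months had 12.8 CPM from 15 UMIs. Melanocytes had 80.6 CPM at 6 months (13 UMIs in 8 of 29 cells), and 16 melanocytes at 12 months gave 18 UMIs in 11 cells. No UMI of Dkk3 was counted in T cells or in Langerhans cells and macrophages.

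Sostdc1, also known as ectodin or Wise, had a pair of high classes among those with at least 20 cells. HF-SC had 381 CPM (361 to 403) at P38, 557 CPM (511 to 607) at 6 months and 348 CPM (302 to 398) at 12 months. Keratinocytes gated by Aldh3a1 and Gata6, a class that rests on 2 markers, had 169 CPM (148 to 193), 400.1 CPM (356 to 448) and 452 CPM (425 to 481), with a UMI in 67.6%, 84.8% and 84.0% of cells. HF-SC exceeded these keratinocytes by 1.17 on the log2 scale at P38 (0.96 to 1.38) and by 0.48 at 6 months (0.27 to 0.69), and at 12 months the ratio was -0.38 (-0.60 to -0.16). These intervals cover counting error only, and the change of sign was not tested. Niche cells had 69.9, 229 and 237 CPM, HG cells 220.3, 59.6 and 123 CPM, and proliferating cells 104, 150.3 and 174 CPM. The ranges of these 3 classes overlapped one another, and all lay below the HF-SC range. In IFE basal cells Sostdc1 was at 21.9, 16.1 and 60.1 CPM, and a UMI was seen in 13.8%, 7.76% and 12.4% of cells. As background, Langerhans cells and macrophages had 15.8 CPM with a UMI in 5.41% of cells at 6 months and 6.21 CPM with 2.38% at 12 months, and T cells at 6 months had 15.9 CPM with 1.82%, so the 6-month IFE basal value was at the background level. The DP had 59.8 CPM at 12 months, and the 15 DP cells at 6 months gave 245 UMIs in 13 cells, of which 1 cell held 91. That is 2258 CPM (1984 to 2559), above every HF-SC value. The fibroblast level of 25.1 CPM at 12 months, against 1.19 CPM at 6 months, came mostly from 1 cell with 51 of 64 UMIs, and was 3.43 CPM once the cells with the highest doublet scores were removed.

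Wif1, a secreted protein that binds Wnt ligands through its WIF domain, was counted in few follicle cells, in most DP cells and in other dermal classes. Niche cells had 60.6 CPM (48.4 to 75.0) at P38, 4.48 CPM from 1 UMI at 6 months and 62.3 CPM (40.3 to 92.0) at 12 months. HG cells had 32.4 CPM (26.1 to 39.8), 5.50 CPM (2.02 to 12.0) and 51.5 CPM (40.1 to 65.2). In HF-SC the level was 15.3, 5.24 and 23.5 CPM, from 15, 4 and 6 cells with a UMI, and 1 cell gave 16 of the 52 UMIs at P38. The 6-month value was the lowest in all of these follicle classes, and the P38 and 12-month values lay close to each other in Niche. IFE basal cells were at 1.31 CPM at P38, 0 UMIs at 6 months, which allows up to 1.72 CPM, and 0.648 CPM at 12 months. DP cells at 12 months had 440.1 CPM (403 to 479.8), with a UMI in 69.7% of 152 cells, and 1 cell held 123 of the 515 UMIs. The 15 DP cells at 6 months gave 434 UMIs of Wif1 in 14 cells, of which 1 cell held 134. That is 4000 CPM (3633 to 4395), above the DP value at 12 months. Fibroblasts had 75.4 CPM (192 UMIs) at 12 months, above every Niche, HG and HF-SC value, against 25.1 CPM (21 UMIs) at 6 months. Muscle and pericyte cells had 53.6 CPM (31 UMIs) at 12 months and 7.21 CPM (3 UMIs) at 6 months.

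Frzb, the second secreted frizzled-related protein of the group, was counted mostly in DP cells. No Frzb UMI was counted among 34646663 at P38, which allows up to 0.0866 CPM over that library. At 6 months 62 UMIs were counted, 48 of them in 8 of the 15 DP cells, and at 12 months 43 were counted, 30 of them in DP cells. The 15 DP cells at 6 months, of which 1 held 15 UMIs, had 442 CPM (326 to 587). The DP level at 12 months was 25.6 CPM (17.3 to 36.6), with a UMI in 14.5% of cells. Fibroblasts had 4 UMIs at 12 months, against 1 at 6 months, and the only epithelial class with any was SG at 6 months, with 2 UMIs in 1 cell.

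Apcdd1, a membrane glycoprotein that inhibits Wnt signaling and is itself induced by it, was a gene of the dermis. Fibroblasts had 214 CPM (197 to 233) at 12 months, against 756 CPM (699 to 818) at 6 months, and the DP at 12 months had 411 CPM (375 to 449). The share of fibroblasts with a UMI was 71.5% at 12 months, against 77.3% at 6 months. In IFE basal cells Apcdd1 was low but present, with 17.1, 49.9 and 49.9 CPM at P38, 6 months and 12 months. In the Aldh3a1/Gata6-gated keratinocytes, a follicle class, it stood at 22.5, 69.8 and 101 CPM. In HF-SC it was at 2.06 CPM (7 UMIs), 2.09 CPM (2 UMIs) and 15.1 CPM (9 UMIs). Niche cells had 2.14 CPM, 0 UMIs, which allows up to 13.5 CPM, and 44.9 CPM, the last from 18 UMIs in 9 cells. Inner root sheath (IRS) and hair shaft cells at 6 months had 83.7 CPM.

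Axin2, a scaffold of the β-catenin destruction complex and a widely used feedback target, reached at most 67.5 CPM in any class and library with at least 20 cells. IFE basal cells had 8.49 CPM (6.34 to 11.1) at P38, 24.1 CPM (17.4 to 32.6) at 6 months and 27.3 CPM (24.1 to 30.9) at 12 months, with a UMI in 11.7%, 25.9% and 27.7% of cells. HF-SC had 3.53 CPM (1.82 to 6.16), 8.38 CPM (3.62 to 16.5) and 23.5 CPM (12.9 to 39.5), from 12, 8 and 14 UMIs. HG cells had 8.91, 4.58 and 12.7 CPM. The means over the 3 libraries were 19.97 ± 10.1 CPM in IFE basal cells, 11.8 ± 10.4 CPM in HF-SC and 7.60 ± 10.8 CPM in Niche (SD, n = 3 each), and the ranges of these classes overlapped. Fibroblasts had 36.5 CPM at 12 months, against 52.6 CPM at 6 months. The highest value, in T cells at 6 months, came from 17 UMIs.

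Nkd1, which binds Dishevelled and dampens the pathway, was highest in the dermis. The DP had 69.2 CPM (55.0 to 86.0) at 12 months, and fibroblasts had 58.9 CPM (49.9 to 69.1) at 12 months, against 55.0 CPM (40.2 to 73.3) at 6 months. In the bulge it was low, with 6.76, 2.09 and 10.1 CPM in HF-SC and 4.99, 13.5 and 12.5 CPM in Niche cells at P38, 6 months and 12 months. IFE basal cells had 2, 0 and 2 UMIs in all. No UMI was counted in the Aldh3a1/Gata6-gated keratinocytes, which allows up to 2.33, 3.95 and 1.32 CPM at the 3 ages.

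Lef1, the DNA-binding partner of β-catenin, was a gene of the growing hair and the DP. IRS and hair shaft cells at 6 months had 264 CPM (243 to 288), with a UMI in 23.8% of 399 cells whose median depth was 565 UMIs. The DP at 12 months had 275 CPM (246 to 307), with a UMI in 78.3% of cells, and 13 of the 15 DP cells at 6 months had one. Proliferating cells had 0 UMIs at P38, which allows up to 2.45 CPM, 115 CPM (98.6 to 133) at 6 months and 14.7 CPM (11.0 to 19.2) at 12 months. HG cells had 6.42 CPM at P38, 19.3 CPM at 6 months and 33.6 CPM (24.5 to 45.0) at 12 months. All 21 UMIs of HG at 6 months came from 1 of 87 cells, while at 12 months 32 of 91 cells had a UMI. HF-SC had 10, 0 and 2 UMIs of Lef1, and IFE basal cells had 4, 2 and 2.

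HF-SC were compared with IFE basal cells to ask which of these genes set the bulge stem cells apart from the epidermal basal layer over the 3 libraries. Sfrp1, Dkk3, Sostdc1, Wif1 and Nkd1 were higher in HF-SC, and Apcdd1 was lower. UMI sums of 10 epithelial classes in 3 libraries were fitted with edgeR's quasi-likelihood test with library as a block, with Benjamini-Hochberg adjustment over 10877 genes. Of these genes 18.9% passed an adjusted p of 0.05, 10.5% as higher and 8.46% as lower in HF-SC. Of the 9 genes 8 were tested, 5 were higher and 1 was lower, while Frzb did not pass the filter on low counts. The genes were chosen with earlier results of these data known, so this count is a description and no independent test.

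In that fit Dkk3 was higher in HF-SC by 5.48 ± 0.59 on the log2 scale (SE, edgeR adjusted p = 5.3e-07) and Sfrp1 by 3.97 ± 0.47 (adjusted p = 1.4e-06). Sostdc1 was higher by 3.57 ± 0.54 (adjusted p = 2.6e-05), Nkd1 by 4.55 ± 0.78 (adjusted p = 0.00017) and Wif1 by 3.92 ± 0.78 (adjusted p = 0.00061). Apcdd1 fell by 3.09 ± 0.58 on the log2 scale (adjusted p = 0.00037). Within single libraries, the log2 ratio of Sfrp1 was 3.98 at P38, 4.02 at 6 months and 4.50 at 12 months, and that of Apcdd1 was -3.06, -4.57 and -1.72. That of Wif1 was 3.55 at P38 and 5.18 at 12 months. IFE basal cells had no Wif1 UMI at 6 months, where HF-SC were at least 3.04-fold higher by a floor of 3 counts. The Nkd1 ratio was 4.37 at P38 and 5.54 at 12 months and rests on 2, 0 and 2 UMIs in IFE basal cells, and at 6 months, with 2 UMIs in HF-SC and 0 in IFE basal cells, no difference was detectable. Nkd1 was not tested in the fit with only both classes. The other target genes did not pass. Axin2 had a log2 ratio of -1.18 ± 0.49 (adjusted p = 0.0995), and Lef1, with the few UMIs given above, had one of 2.20 ± 1.26 (adjusted p = 0.242). Under 12 alternative fits the adjusted p of Axin2 ran from 0.0324, with the 2 classes alone in the fit, to 0.411. Without the 12-month library the log2 ratio of Sostdc1 was 4.41, that of Apcdd1 -3.81 and that of Nkd1 3.92. Without P38 that of Dkk3 was 6.26, and under a stricter gate that of Wif1 was 4.90, all still past the threshold. Nkd1 and Wif1 came closest to missing it without the 12-month library, each at an edgeR adjusted p of 0.0490.

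**Figure D2:**
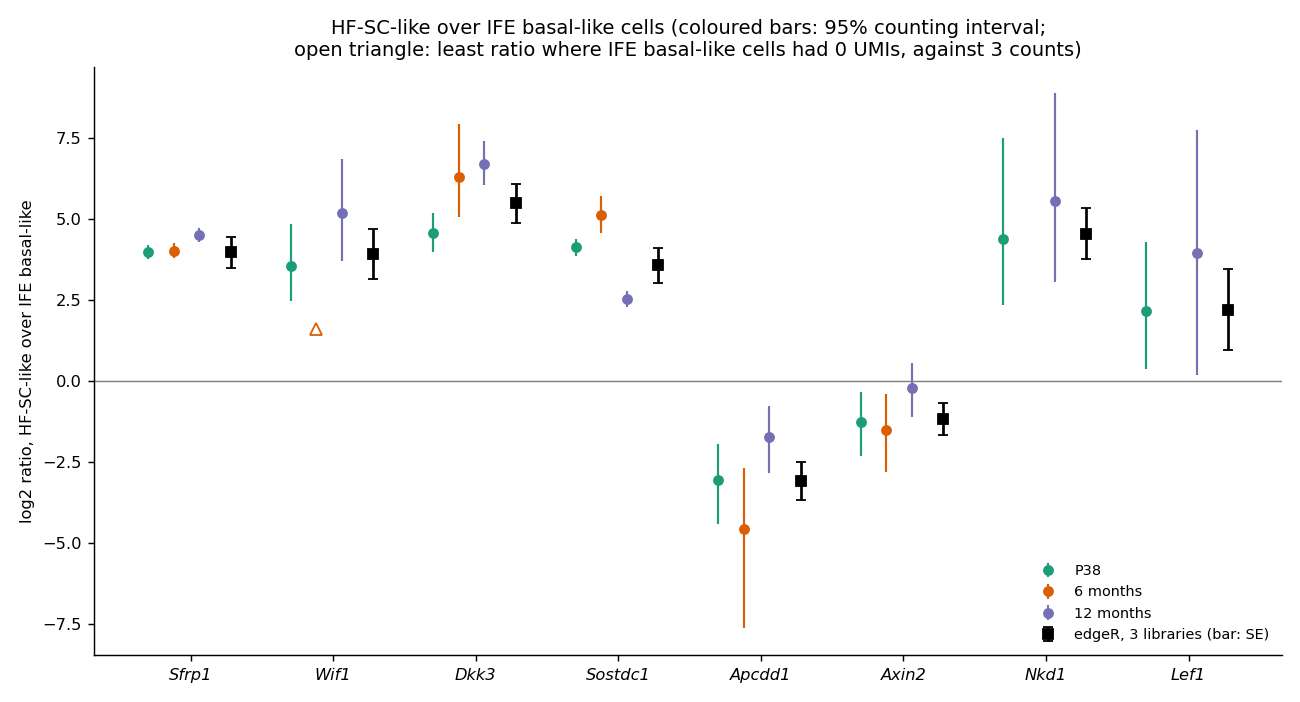
Log2 ratio of CPM in HF-SC over IFE basal cells for each gene, with 1 point per library, bars for 95% intervals of counting error, black squares for the edgeR ratio with its SE and an open triangle for the lower bound of Wif1 at 6 months. Points of Sfrp1, Dkk3 and Sostdc1 lie above 0 in every library, and those of Apcdd1 and Axin2 below 0, with Axin2 at 12 months at -0.22 (-1.11 to 0.56).

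Within the bulge and germ no gene of the group passed the test. In Niche over HF-SC 0.147% of genes passed, and the log2 ratios were -1.83 ± 0.44 for Sfrp1 (edgeR adjusted p = 0.0987), -1.59 ± 0.51 for Dkk3 (adjusted p = 0.277), -1.43 ± 0.52 for Sostdc1 (adjusted p = 0.341) and 1.70 ± 0.63 for Wif1 (adjusted p = 0.371). In HG over HF-SC 1.10% passed, and the ratios were -1.61 ± 0.43 for Sfrp1 (adjusted p = 0.0628), -1.65 ± 0.50 for Sostdc1 (adjusted p = 0.102), -1.49 ± 0.48 for Dkk3 (adjusted p = 0.142) and 2.56 ± 0.97 for Lef1 (adjusted p = 0.253). The call on Sfrp1 depended on the fit, since 6 of 12 alternatives passed in Niche over HF-SC (adjusted p from 0.00026 to 0.808) and 7 of 12 in HG over HF-SC (0.00499 to 0.764). The stricter gate, doublet removal and removal of shared barcodes also took migNiche out of the fit, which then held 9 classes. With at least 1000 genes per cell, migNiche and SG left it, and it held 8. Sfrp1 passed in each of these settings in both comparisons, and the effect of the class set was not tested. With only both classes in the fit, Dkk3 (adjusted p = 0.00109), Wif1 (0.0179) and Sostdc1 (0.0244) passed too in Niche over HF-SC, with ranges up to 0.854, 0.997 and 0.854 over the 12 alternatives. In HG over HF-SC Dkk3 and Sostdc1 passed in 2 of 12 each, with no filter on low counts and without P38 (adjusted p from 0.0217 to 0.728 and from 0.00974 to 0.694). In UpHF over IFE basal, where 28.1% of genes passed (15.1% higher, 13.0% lower), Sfrp1 fell by 2.53 ± 0.53 on the log2 scale (adjusted p = 0.00079). Sostdc1, with a log2 ratio of 0.81 ± 0.51 (adjusted p = 0.262), and Axin2, with -0.65 ± 0.47 (adjusted p = 0.329), did not pass, although Sostdc1 did with only both classes in the fit (adjusted p = 0.0381, with a range up to 0.576).

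The secreted antagonists and the target genes were then set side by side as summed levels in each class. HF-SC had 1070 CPM of the 5 antagonists together at P38, 2431 CPM at 6 months and 1344 CPM at 12 months, and 13.2, 10.5 and 37.0 CPM of the 3 targets. IFE basal cells had 63.7, 119.9 and 95.2 CPM of antagonists and 9.47, 25.2 and 27.7 CPM of targets. HF-SC thus stood far above IFE basal cells in antagonists, while their target sums overlapped. HG cells had 520, 955 and 337 CPM of antagonists and 18.9, 24.8 and 59.8 CPM of targets. IRS and hair shaft cells at 6 months went the other way, with 49.2 CPM of antagonists and 307 CPM of targets, of which Lef1 gave 264 CPM. The DP at 12 months was high in both, at 595 and 360 CPM. Across all 42 units of class and library with at least 20 cells, Pearson's r of log2(CPM + 5) was -0.16 between Sfrp1 and Axin2 and -0.16 between Sostdc1 and Axin2. Of the 15 pairs of an antagonist and a target 5 had an r below 0, and the range reached 0.83 for Wif1 and Nkd1, with 0.57 for Wif1 and Lef1, 0.54 for Frzb and Nkd1 and 0.51 for Dkk3 and Nkd1. Over the 31 epithelial units alone, r was -0.11 for Sfrp1 and Axin2, 0.05 for Sostdc1 and Axin2 and 0.77 for Wif1 and Nkd1. It was 0.49 for Wif1 and Lef1, -0.15 for Frzb and Nkd1 and 0.61 for Dkk3 and Nkd1. Within single ages, r of Sfrp1 and Axin2 over epithelial units was -0.10 at P38, -0.52 at 6 months and 0.35 at 12 months. Units of 1 library share its depth and processing, so these are descriptions.

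**Figure D3:**
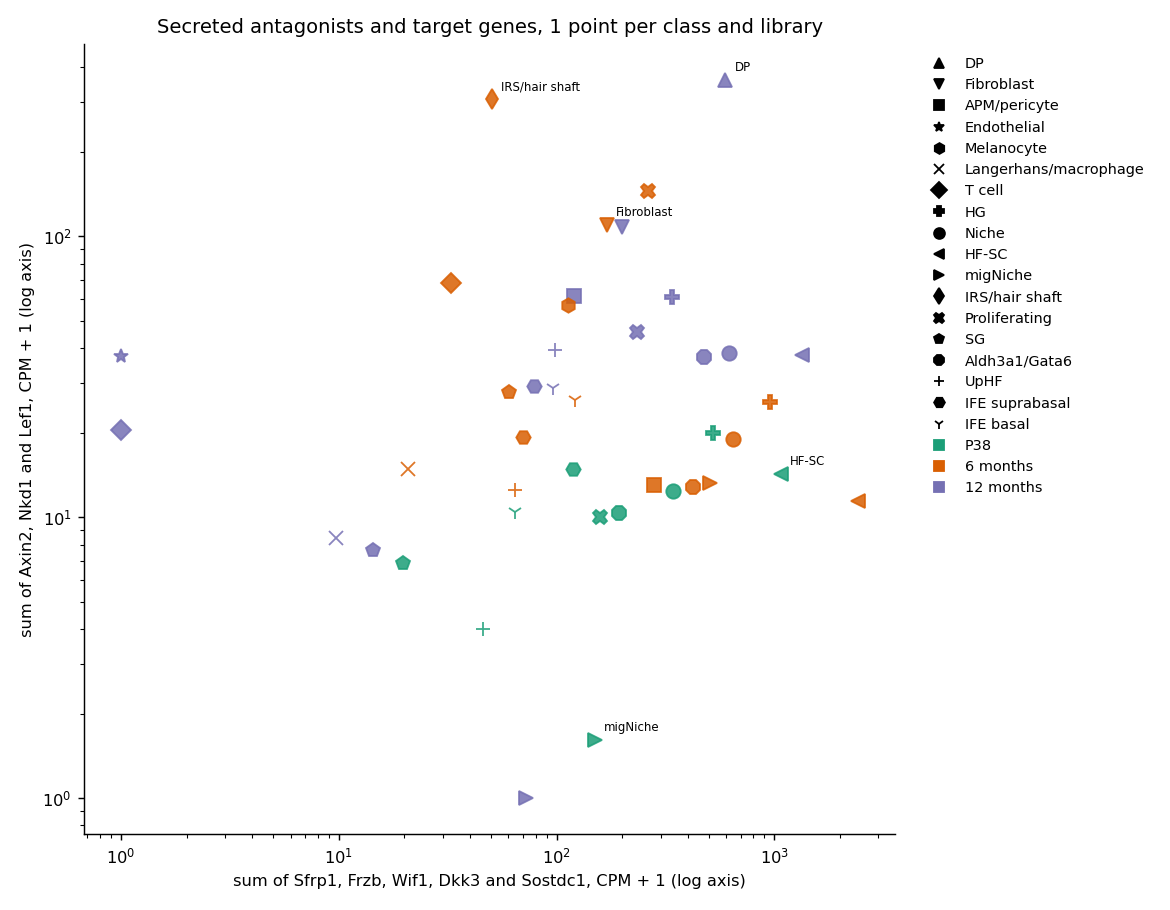
Summed level of the 5 secreted antagonists (x axis, CPM + 1, log scale) against that of the 3 target genes (y axis, CPM + 1, log scale), with 1 point per class (shape) and library (color). HF-SC lie far right, with 1070, 2431 and 1344 CPM of antagonists against 13.2, 10.5 and 37.0 CPM of targets at P38, 6 months and 12 months, IRS and hair shaft cells lie high and left, and the DP at 12 months lies high and right.

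Ages were compared within classes as a description, with genes of at least 20 UMIs over both libraries counted past a 2-fold difference, and with 95% intervals of counting error in parentheses. The comparisons share libraries, and the median log2 ratio over all genes in HF-SC was 0.29 for 6 months over P38 and 0.23 for 12 months over P38. In HF-SC, Sfrp1 at 6 months was above P38 by 1.52 on the log2 scale (1.42 to 1.62), and 12 months over 6 months gave -1.18 (-1.33 to -1.02). Dkk3 was higher than at P38 by 1.18 (0.93 to 1.43) at 6 months and by 1.30 (1.01 to 1.58) at 12 months, while 12 months over 6 months gave 0.12 (-0.19 to 0.43). Axin2 was higher at 12 months than at P38 by 2.74 (1.52 to 3.98), from 14 and 12 UMIs.

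At 6 months over P38 in HF-SC, 13.2% of all genes were past 2-fold as higher and 4.99% as lower, and of the 6 genes of the group with enough UMIs Sfrp1, Dkk3 and Axin2 were higher and Wif1 and Nkd1 lower. The ratios of Axin2, 1.25 (-0.25 to 2.66) from 8 and 12 UMIs, and Nkd1, -1.69 (-4.82 to 0.33) from 2 and 23 UMIs, have intervals that include 0. At 12 months over P38 the shares were 15.7% and 10.4%, with Dkk3 and Axin2 higher and 0 lower. At 12 months over 6 months they were 4.30% and 9.22%, with Axin2 higher and Sfrp1 lower. In Niche, 14.4% of genes were higher and 9.61% lower at 6 months over P38, with Dkk3 and Sostdc1 among the first and Wif1 among the second, and 13.7% were higher at 12 months over P38, with Dkk3, Sostdc1 and Apcdd1. The Niche ratio of Wif1 at 6 months over P38, -3.76 (-9.08 to -1.24), rests on 1 UMI at 6 months.

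In HG, Sfrp1 was higher at 6 months than at P38 by 2.06 (1.91 to 2.21), as was Lef1, from 1 cell, where 11.6% of genes were past 2-fold as higher. Wif1 (-2.56, -4.04 to -1.38) and Sostdc1 (-1.89, -2.28 to -1.52) were lower, where 6.96% were. At 12 months over 6 months, which shares the 6-month library, the log2 ratios were -2.84 for Sfrp1, where 16.9% of genes were past 2-fold as lower, and 3.23 for Wif1, 1.05 for Sostdc1 and 1.47 (-0.03 to 3.26) for Axin2, from 17 and 5 UMIs, where 7.26% were as higher. Nkd1 and Lef1 were higher at 12 months than at P38, by 1.92 (0.72 to 3.19) and 2.39 (1.57 to 3.27), where 10.2% were.

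In IFE basal cells Axin2 was higher than at P38 by 1.5 (0.88 to 2.12) at 6 months and by 1.69 (1.25 to 2.15) at 12 months, and Apcdd1 by 1.54 at both ages. There 10.3% and 10.6% of all genes were past 2-fold as higher, and of the 5 genes of the group with enough UMIs Sfrp1, Apcdd1 and Axin2 were past it at 6 months and Sostdc1, Apcdd1 and Axin2 at 12 months. At 12 months over 6 months Sostdc1 was higher by 1.90 (1.36 to 2.51) and Sfrp1 had a ratio of -1.65 (-1.93 to -1.38), where 4.99% of genes were past 2-fold as higher and 11.3% as lower. In UpHF, Axin2 was higher at 12 months than at P38 by 4.11 (2.76 to 5.82), from 37 and 5 UMIs, as were Sostdc1 and Apcdd1, where 14.7% of genes were. In Aldh3a1/Gata6-gated keratinocytes at 12 months over P38, Dkk3, Sostdc1, Apcdd1 and Axin2 were past 2-fold as higher, with 12.5% of all genes, and Sfrp1 as lower, with 11.5%.

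In proliferating cells Lef1 was at least 46.9-fold higher at 6 months than at P38 and at least 5.98-fold higher at 12 months than at P38, by a floor of 3 counts. In fibroblasts, 12 months over 6 months gave -1.82 (-1.99 to -1.65) for Apcdd1, where 11.3% of genes were past 2-fold as lower. Wif1 was higher by 1.59 (0.93 to 2.31), as were Lef1 and, from 1 cell, Sostdc1, where 6.96% of genes were past 2-fold as higher.

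**Figure D4:**
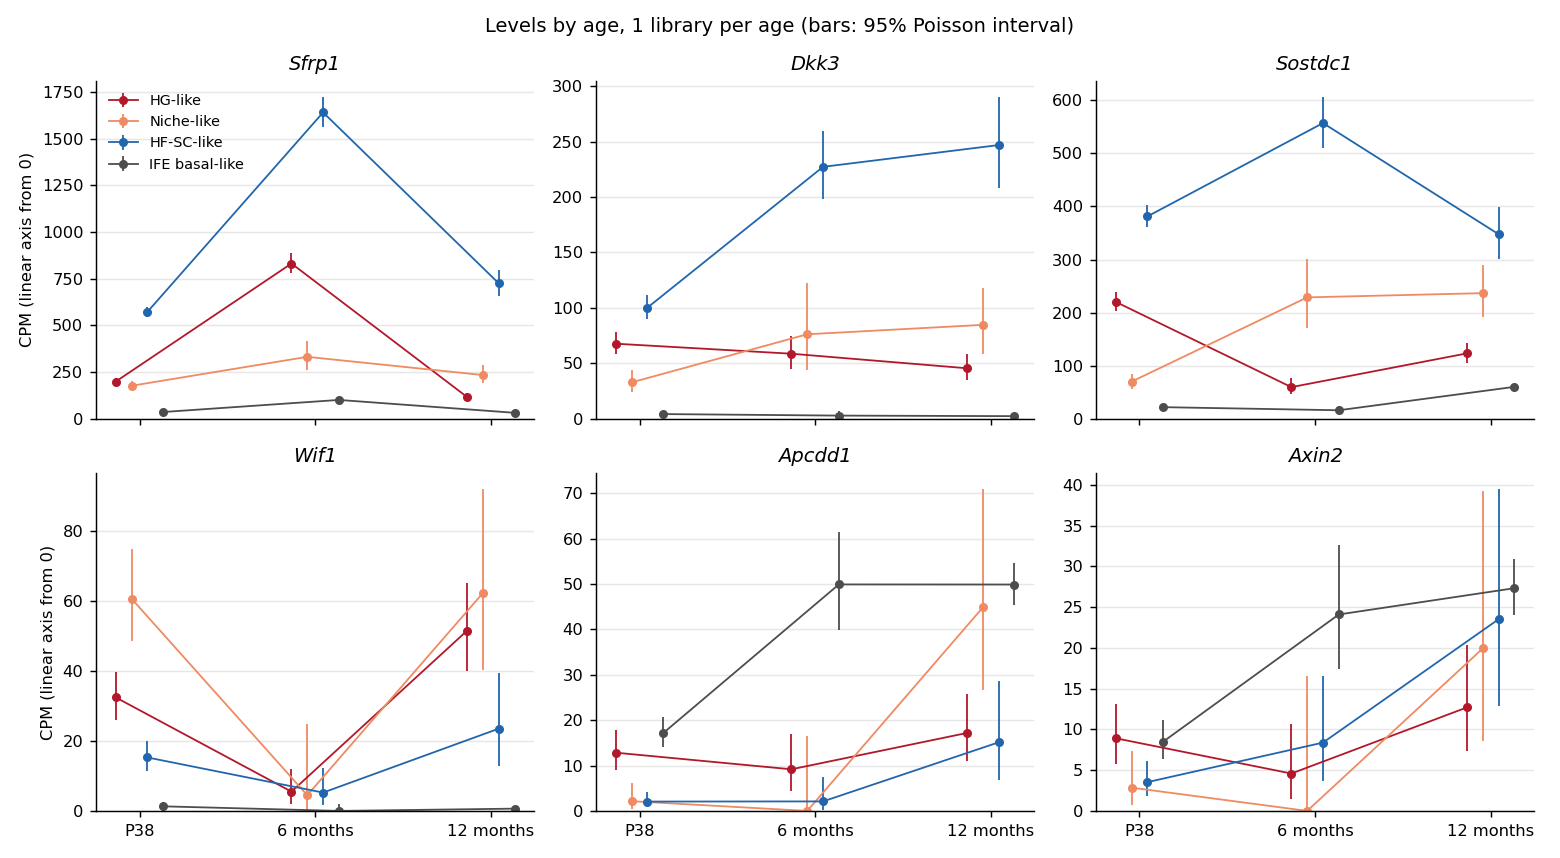
Level of 6 of the genes (y axis, CPM, linear scale from 0) at P38, 6 months and 12 months (x axis) in HG, Niche, HF-SC and IFE basal cells, with bars for exact Poisson 95% intervals and 1 library per age. Sfrp1 peaks at 6 months in HF-SC and HG, Wif1 has its lowest value there in both, and Axin2 in IFE basal cells stands at 8.49, 24.1 and 27.3 CPM.

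At 12 months, where both classes had over 20 cells, the DP was set against fibroblasts in the same library. Lef1 was higher in the DP by 4.59 on the log2 scale (4.04 to 5.20), Frzb by 4.03 (2.52 to 5.99), Wif1 by 2.54 (2.30 to 2.79) and Apcdd1 by 0.94 (0.76 to 1.12). Dkk3, with a ratio of -2.06 (-2.94 to -1.29), and Axin2, with -1.25 (-2.06 to -0.51), were lower. Nkd1 had a ratio of 0.23 (-0.18 to 0.63) and Sfrp1 one of 0.37 (-0.09 to 0.82), both with intervals that include 0. Sfrp1 in fibroblasts at 12 months rested on 1 cell with 44 of 111 UMIs. Sostdc1 had a ratio of 1.25, set mostly by the 1 fibroblast with 51 UMIs. There is no replicate of this comparison, and no test was made. At 6 months, the 15 DP cells, too few to be counted as a class, had 2221 CPM of Sfrp1 and 2258 CPM of Sostdc1. Of these, 76 of 241 and 91 of 245 UMIs came from 1 cell each. Fibroblasts of that library had 81.3 and 1.19 CPM. For Apcdd1 the DP and fibroblast values there were 700 and 756 CPM, and for Nkd1 64.5 and 55.0 CPM.

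**Figure D5:**
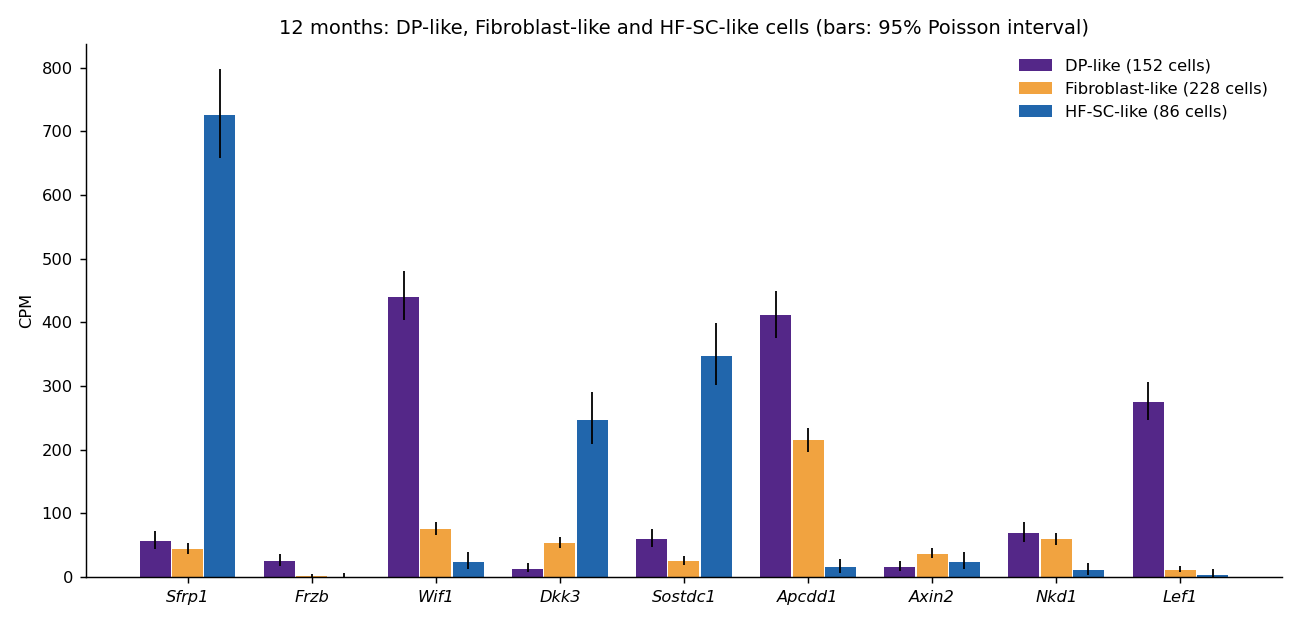
Level of each gene (y axis, CPM, linear scale from 0) in DP cells, fibroblasts and, for scale, HF-SC at 12 months, as bars with exact Poisson 95% intervals. Lef1 stands at 275 CPM in the DP and 11.4 CPM in fibroblasts, and Dkk3 at 12.8 CPM in the DP and 53.4 CPM in fibroblasts.

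Other genes of the pathway were counted from 3 lists, which were chosen with earlier results of these data known, so the counts are descriptions. In HF-SC over IFE basal, 4 of 14 other secreted antagonists and their receptors were tested, of which Igfbp4 was higher (2.73 ± 0.68, edgeR adjusted p = 0.0050) and Kremen2, a Dickkopf receptor, was lower (-3.16 ± 0.88, adjusted p = 0.0117), with a list median of 1.17. Of 11 of 15 other target and feedback genes tested, Lgr5, an R-spondin receptor and a marker used to gate HG, was higher (5.49 ± 0.68, adjusted p = 2.2e-06), and Tnfrsf19, a TNF receptor family member, was lower (-5.14 ± 0.67, adjusted p = 3.7e-06), with a median of -0.20. Of 22 of 23 core transducers tested, 7 were higher and 0 lower, where 10.5% of all genes tested were higher and 8.46% lower, led by Tcf7l1, a Tcf factor that mostly represses Wnt targets (3.35 ± 0.43, adjusted p = 2.8e-06), with a median of 0.32. The median over all genes tested was 0.0081. In UpHF over IFE basal, 15.1% of all genes tested were higher and 13.0% lower. From the list of antagonists and their receptors 2 genes were higher, led by Dkkl1 (5.11 ± 0.79, edgeR adjusted p = 2.5e-05). Of the 11 targets 6 were lower and 0 higher, led by Tnfrsf19 (-2.51 ± 0.52, adjusted p = 0.00067). The median of the targets was -1.14, against -0.018 over all genes. Core transducers there had 6 higher, led by Tcf7l1 (2.20 ± 0.45, adjusted p = 0.00062), and 3 lower, led by Pygo1 (-2.11 ± 0.58, adjusted p = 0.0073). In Niche over HF-SC and HG over HF-SC no listed gene passed.

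The genes were also ranked by likeness over the 42 units, among 7945 genes. Sfrp1 was most like Scx (r = 0.86), Postn (0.84) and Fzd2 (0.83), and Dkk3 most like Adamtsl4 (0.89), Trabd2b (0.88) and Il31ra (0.86). Sostdc1 was most like Krt15 (0.80), and Postn and Krt15 are markers that gated HF-SC. Wif1 was most like Nkd1 (0.83), Aspn (0.80) and Fbln1 (0.76), and Nkd1 most like Cdh11 (0.91), Col6a2 (0.89) and Col5a1 (0.86). Frzb was most like Alx4 (0.92), a DP gating marker, Apcdd1 most like Meis2 (0.82), Axin2 most like Ly6a (0.73), an IFE basal gating marker, and Apcdd1 (0.70), and Lef1 most like Msx2 (0.85). Between the genes themselves, the highest values were 0.83 for Wif1 and Nkd1, 0.79 for Sfrp1 and Dkk3 and 0.70 for Apcdd1 and Axin2.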

How the data were processed

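Libraries of K14-H2BGFP mouse skin were made with 10x Genomics 3ʹ v3 chemistry. The deposited values are UMI counts per gene and cell, which the authors made with Cell Ranger (6.1.2 in the submitters' processing notes and in a file header, 6.0.0 in the other headers) on mm10. Cells were kept at over 200 and under 5000 detected genes and a mitochondrial share under 15%. Doublets were not removed in the main analysis. Scrublet (scanpy 1.11.5) called 4, 0 and 3 cells, which is too few for it to have worked. An alternative removed the 40, 133 and 141 cells with the highest scores. Each cell was scored for 19 marker lists by the mean of the standardized log2 levels of the markers. It was gated to the list with the highest score if at least 2 of its markers were detected. That score had to exceed 0.3 SD and lead by over 0.25 SD, and 2930 cells stayed ungated. A class entered where it had at least 20 cells, and cell type names are rebuilt from markers. CPM was computed from UMI sums. Class differences were fitted with edgeR 4.0.16 in R 4.3.3 (TMM, filterByExpr, library as block), with library as the replicate, and ages were described without a test. Alternatives were RLE size factors, DESeq2 1.42.0, no filter on low counts, only both classes in the fit, no block, each library left out, a stricter gate, at least 1000 genes per cell, doublets removed and shared barcodes removed. Intervals and floors cover counting error only. The block pairs classes of 1 library, since they come from the same sample. Age ratios counted genes with at least 20 UMIs over both libraries, with 0.5 counts added. Scripts were tested on simulated data. In HF-SC over IFE basal, a log2 ratio set to -1 passed the threshold for 10% of 50 genes. A ratio set to 1 passed for 6%, one set to -2 for 76% and one set to 2 for 94%. The simulation gave all genes the same spread and no library effect, and changed only genes with a mean over 20 counts per class and library. Most simulated differences of 2-fold were missed, so a ratio of that size that did not pass does not show equal levels. The share passed among genes with fewer UMIs was not simulated. All 9 genes are named, as are the 3 genes most like each and, in each pathway list, the highest and lowest past the threshold. The genes and lists were chosen with earlier results of these data known. Libraries held 40509290, 48722038 and 48887123 UMIs over all barcodes at P38, 6 months and 12 months.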

Additional observations from a re-analysis of the deposited data

Results flagged for a closer look

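A pair of class ratios had counting intervals above 0 at 1 age and below 0 at another, and the difference was not tested. Sostdc1 in HF-SC over Aldh3a1/Gata6-gated keratinocytes had a log2 ratio of 1.17 at P38, 0.48 at 6 months and -0.38 at 12 months. Axin2 in Aldh3a1/Gata6-gated keratinocytes over IFE basal cells had a log2 ratio of -1.19 at 6 months and 0.40 at 12 months. Each value comes from 1 library.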

How the results depend on the processing

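Of 371 log2 ratios of the genes under alternative settings, 335 kept their direction and side of the threshold, 22 came to pass it, 14 changed sign and 0 were lost. A further 13 gave no value, 12 of them with only both classes in the fit, where Nkd1 in HF-SC over IFE basal was among those not tested. None of the ratios that changed sign had passed the threshold. With each library left out in turn, these ran from -0.17 to 1.15 for Nkd1 and -0.11 to 1.71 for Apcdd1 in Niche over HF-SC, from -0.72 to 0.54 for Axin2 and -0.995 to 0.36 for Nkd1 in HG over HF-SC, and from -1.28 to 1.38 for Dkk3, -0.0192 to 0.95 for Wif1, -0.14 to 1.80 for Lef1 and -0.50 to 0.24 for Apcdd1 in UpHF over IFE basal. Axin2 in HG over HF-SC was also at -0.10 without the replicate block, and in UpHF over IFE basal Dkk3 was at -0.20 with DESeq2, and Wif1 at -0.13 and Lef1 at -1.08 with at least 1000 genes per cell. Counts of genes past the threshold without the replicate block, which takes the library out of the fit, were 1150 in HF-SC over IFE basal, 1 in Niche over HF-SC, 4 in HG over HF-SC and 1970 in UpHF over IFE basal, against 2058, 16, 120 and 3055 with it. In Niche over HF-SC the count was 51 with DESeq2, 96 with no filter on low counts, 266 with only both classes compared, 41 with the stricter gate and 25 with doublets removed, and in HG over HF-SC it was 338 with no filter. Leaving out 1 library gave 1221 to 1313, 2 to 9, 4 to 126 and 1769 to 2238 genes in these comparisons, with each library left out moving the first and second by over 1.5 times, 6 months (15) and 12 months (4) the third, and P38 (2023) and 6 months (1769) the fourth. The causes were not tested. Of 1449 CPM values under other gates, doublet removal, at least 1000 genes or without shared barcodes, 37 moved by more than their counting interval. The alternative without shared barcodes was chosen after seeing the data. Depth limits Frzb, Axin2, Nkd1, Wif1 and Lef1, since many of their class values rest on under 20 UMIs.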
